A study of Caenorhabditis elegans with 2 samples.

Results

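Nuclear hormone receptors are transcription factors that bind DNA through a zinc finger domain and, in most members, a small lipid-soluble molecule through a ligand-binding domain. *C. elegans* carries an unusually large set of them, most of which are related to the vertebrate receptor HNF4 and have no known ligand. Members studied so far tune fat storage, propionate breakdown, steroid signalling, detoxification, moulting and neuronal identity to diet and developmental stage. The genes described here are the rows of the deposited table named *nhr-* with a number, plus *daf-12*, *unc-55*, *fax-1*, *odr-7* and *sex-1*, which are receptors with names from older genetic work. They numbered 264 of 18510 genes.

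RNA of whole wild-type N2 nematodes was sequenced in 2 libraries. In 1 library the nematodes had been given 2 mM AbaPep#07, a peptide identified in an abalone protein hydrolysate, from the L4 larval stage on (AbaPep#07), and in the other they were untreated (Control). Both cultures carried no transgene or mutation and were collected at Day 10 of adulthood. The paper states that its liquid cultures were kept in S medium and fed *E. coli* NA22. It adds FUDR (fluorodeoxyuridine) in its liquid stress survival, behaviour and life span assays. Its RNA sequencing methods do not name the medium or food, or say whether these cultures received FUDR. The question was which transcripts differ in old nematodes that had received the peptide.

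The libraries held 19241145 estimated reads (AbaPep#07) and 19409907 estimated reads (Control) over all genes. Each condition has a single library and so no replicate error, and a call compares the libraries and not the conditions. Estimated reads are the counts behind a value, FPKM is the number of fragments scaled by transcript length and library size, and every ratio is AbaPep#07 over Control. Over all genes FPKM summed to 1159923 (AbaPep#07) and 1208844 (Control), so sums of FPKM do not share a common total. A read ratio was divided by the library totals and carries an exact 95% interval that covers counting error only. It leaves out differences between cultures and the copying of molecules by PCR. Whole-animal RNA cannot tell fewer cells of a type from less RNA per cell.

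Markers of 6 tissues checked the label of whole nematodes, and none was at 0 in either library. Summed FPKM of the markers was 458 (AbaPep#07) and 317 (Control) for 4 intestine genes, of which 3 were higher and *vha-6* was lower. It was 2094 (AbaPep#07) and 2300 (Control) for muscle, 462 (AbaPep#07) and 451 (Control) for neurons, and 315 (AbaPep#07) and 452 (Control) for epidermis. The neuron sum was mostly *snb-1*. Of the 5 neuron markers *rab-3* and *snt-1* were lower beyond counting error, *unc-64* was higher and 2 had intervals that held no change. The lower epidermis sum came from *col-19*, while *elt-3* was higher. For germline the summed FPKM was 566 (AbaPep#07) and 699 (Control), and for sperm 6.77 (AbaPep#07) and 9.72 (Control). The sperm sum was mostly *spe-38*, with 5.44 FPKM (AbaPep#07) and 7.14 FPKM (Control). The sperm marker *spe-11* met the thresholds of the study as lower on only 3.07 reads (AbaPep#07) and 14.08 reads (Control). For *spe-42* the reads were 4 (AbaPep#07) and 5 (Control). All 5 muscle markers and all 5 germline markers were lower with AbaPep#07 beyond counting error. Among all genes with at least 1000 reads, as these markers had, 1933 of 5964 were lower by this measure. The part of these tissue differences in the receptor values was not tested.

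Most receptor genes were transcribed at a low level in both libraries. The median of their mean FPKM was 3.16, against 7.03 for all genes, and 187 of the 264 receptor genes (70.8%) had at least 20 reads over both libraries together, against 76.3% of all genes. The other 77 had at most 14 reads in either library and were not read singly unless stated. In 23 genes 1 library had 0 reads while the other had at most 4.28, so no fold change is given for them. At the upper end, 142 genes had at least 100 reads and 34 had at least 1000.

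As a family the receptors were at nearly the same level in both libraries. Summed over all 264 genes they had 2469 FPKM (AbaPep#07) and 2388 FPKM (Control), a ratio of 1.03, and took 0.350% of the AbaPep#07 reads and 0.335% of the Control reads. The read ratio was 1.04 (1.03 to 1.06). One gene carried most of that surplus, as without *nhr-17* the sums were 2061 FPKM (AbaPep#07) and 2041 FPKM (Control), a ratio of 1.01. Among the 187 genes with at least 20 reads, 91 were higher by FPKM with AbaPep#07, 92 were lower and 4 were equal. Their median log2 FPKM ratio was 0.00, with quartiles of -0.21 and 0.23, against a median of -0.03 and quartiles of -0.20 and 0.21 over all 14119 genes with as many reads.

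Few receptor genes were past 2-fold. Of the 187, 7 had an FPKM ratio of at least 2 (3.74%, where 3.27% of all genes with 20 reads did), and only *nhr-227* had a ratio of 0.5 or less (0.535%, where 2.34% of all genes did). The thresholds of the study ask for an FDR of 0.05 or less in a count test named PossionDis, with adjustment over all genes, together with a difference of at least 2-fold in FPKM. They were met by 6 of the 264 receptor genes in the higher direction (2.27%, against 2.1% of all genes) and by 0 in the lower direction (against 1.43% of all genes). Both higher shares lay close to the share over all genes.

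A counting interval wholly above no change was found for 32 of the 187 genes (17.1%, against 20.6% of all genes) and one wholly below for 29 (15.5%, against 20.6%). For the other 126 the interval held no change. The interval narrows with reads, so calls by size and by interval were compared by depth. Of the 45 receptor genes with 20 to 100 reads, 6 were past 2-fold higher and 1 lower. Over all genes at that depth 267 of 3117 were past 2-fold higher and 231 lower. Among the 108 receptor genes with 100 to 1000 reads only *nhr-68* was past 2-fold, against 128 higher and 93 lower of 5038 genes. None of the 34 with at least 1000 reads was past 2-fold, against 66 higher and 7 lower of 5964 genes. The log2 FPKM ratios of those 34 ran from -0.58 for *nhr-18* to 0.87 for *sex-1*. By interval, 4 of the 45 lay above no change and 3 below, against 292 and 234 of 3117 genes at that depth. With 100 to 1000 reads, 18 of 108 lay above and 18 below, against 1133 and 738 of 5038. With at least 1000 reads, 10 of 34 lay above and 8 below, against 1480 and 1933 of 5964.

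**Figure D1:**
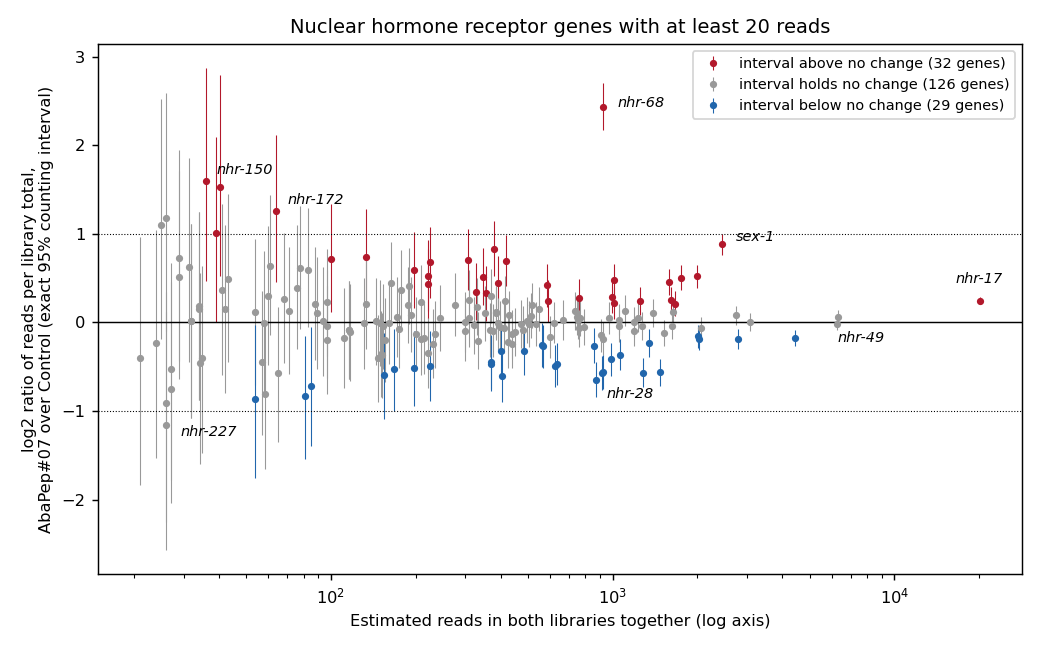
Each point is 1 of the 187 receptor genes with at least 20 reads, with estimated reads over both libraries on a log axis against the log2 ratio of reads per library total (AbaPep#07 over Control). Bars are exact 95% counting intervals, dotted lines mark 2-fold, and *nhr-68* stands alone among genes with over 100 reads at a log2 read ratio of 2.43.

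Among the 3 listed receptors of propionate and methionine metabolism only *nhr-68* was past 2-fold, and the median log2 FPKM ratio was 0.07. NHR-10 and NHR-68 are known to switch on a shunt that breaks down propionate when vitamin B12 is scarce, and NHR-114 is known to act when the methionine cycle runs low. The gene *nhr-68* (V:11573440-11575709, plus strand, WBcel235) had 776 reads in the AbaPep#07 library and 145 reads in the Control library. Its level was 36.57 FPKM (AbaPep#07) and 6.84 FPKM (Control), a ratio of 5.35 by FPKM and of 5.40 by reads (4.52 to 6.49). It was the receptor gene with the highest FPKM ratio among those with at least 20 reads. Intestine markers, whose tissue is the main site of this metabolism, had summed FPKM of 458 (AbaPep#07) and 317 (Control), and their part in this value was not tested.

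Its partner *nhr-10* (III:7112295-7115438) had 624 reads (AbaPep#07) and 607 reads (Control), and its level was 25.72 FPKM (AbaPep#07) and 25.01 FPKM (Control). The read ratio of 1.04 had an interval that held no change (0.926 to 1.16). In the Control library *nhr-10* was thus the more abundant of the pair per length, and in the AbaPep#07 library *nhr-68* was. The gene *nhr-114* (V:4187202-4190008) had 127 reads (AbaPep#07) and 95 reads (Control), a read ratio of 1.35 (1.03 to 1.78). Its FPKM of 4.79 (AbaPep#07) and 4.55 (Control) gave a ratio of only 1.05. It has 4 annotated transcripts, and the unit decided whether it differed.

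Genes on which these receptors act were read beside them. Of the 5 genes of the propionate shunt, all 5 were higher beyond counting error (20.6% of all genes were) and 4 met the study thresholds as higher (2.1% of all genes did). The first enzyme gene, *acdh-1*, had 7233 reads (AbaPep#07) and 19.27 reads (Control), with reads partly divided with other genes in both libraries. The next genes *ech-6*, *hach-1* and *hphd-1* had 4651, 5130 and 6330 reads in the AbaPep#07 library, against 1400, 1520 and 471 reads in the Control library. The last gene, *alh-8*, had 36504 reads (AbaPep#07) and 30680 reads (Control), with a read interval of 1.18 to 1.22 that fell short of the fold threshold.

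Of 8 methionine cycle genes, 5 were higher, 1 was lower and 2 had intervals that held no change, with a median log2 FPKM ratio of 0.04. The shares over all genes were 20.6% higher and 20.6% lower, and among genes with at least 1000 reads 1480 of 5964 were higher. The folate transporter gene *folt-2* met the study thresholds with 3834 reads (AbaPep#07) and 41 reads (Control). Methionine synthase, *metr-1*, was the lower gene, with 3289 reads (AbaPep#07) and 4981 reads (Control), a read ratio of 0.666 (0.637 to 0.696). The other members lay between log2 FPKM ratios of -0.13 and 0.16.

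Receptors of fatty acid metabolism did not move as a group. NHR-49 resembles vertebrate HNF4 in sequence and PPARα in function, drives fatty acid desaturation and β-oxidation, and works with NHR-80, NHR-13 and NHR-66. The 8 listed genes had a median log2 FPKM ratio of -0.02, with 1 higher, 3 lower and 4 whose interval held no change, against 20.6% of all genes in each direction. The gene *nhr-49* (I:9869718-9874626, plus strand) had 3202 reads (AbaPep#07) and 3084 reads (Control). Its level of 96.29 FPKM (AbaPep#07) and 95.85 FPKM (Control) was the second highest of the family and nearly equal in the libraries, with a read ratio of 1.05 (0.997 to 1.101).

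The gene *nhr-80* (III:11985-14869, minus strand), whose product acts on the desaturase genes together with NHR-49, had 464 reads (AbaPep#07) and 602 reads (Control). Its 17.03 FPKM (AbaPep#07) and 22.58 FPKM (Control) gave a log2 ratio of -0.41, and the read ratio of 0.778 (0.687 to 0.879) lay below no change. The lowest of the list was *nhr-28* (X:16354976-16359650), with 338 reads (AbaPep#07) and 533 reads (Control), 11.07 FPKM (AbaPep#07) and 17.42 FPKM (Control), and a read ratio of 0.640 (0.557 to 0.734). The third lower gene was *nhr-66*, a partner of NHR-49 in sphingolipid gene regulation, with 1297 reads (AbaPep#07) and 1489 reads (Control) and a read ratio of 0.879 (0.815 to 0.947).

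The opposite direction was seen for *nhr-62*, required for the long life of diet-restricted nematodes, which had 587 reads (AbaPep#07) and 425 reads (Control). Its read ratio was 1.39 (1.23 to 1.58), with 24.20 FPKM (AbaPep#07) and 17.98 FPKM (Control). The remaining members, *nhr-13*, *nhr-64* and *nhr-76*, had 174, 624 and 334 reads in the AbaPep#07 library, against 155, 646 and 330 reads in the Control library, and none of their intervals lay to 1 side. The differences among these receptors were all under 2-fold.

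Of 10 genes known as targets of NHR-49, most of them in fatty acid metabolism, 8 were lower and 1 was higher. The other had an interval that held no change, and the median log2 FPKM ratio was -0.41. Over all genes with 20 reads, 20.6% were lower by this measure, and over those with at least 1000 reads 1933 of 5964 were. The desaturase gene *fat-7* met the study thresholds as lower, on only 2 reads (AbaPep#07) and 18 reads (Control), a read ratio of 0.112 (0.0126 to 0.468). More abundant genes of the list were the acyl-CoA synthetase gene *acs-2*, with 16637 reads (AbaPep#07) and 25663 reads (Control), and the β-oxidation gene *hacd-1*, with 6231 reads (AbaPep#07) and 9641 reads (Control). Both had read ratios near 0.65, of 0.654 and 0.652. The flavin monooxygenase gene *fmo-2*, also induced by other stress regulators, was the higher gene and met the study thresholds with 734 reads (AbaPep#07) and 187 reads (Control). The level of *nhr-49* itself was as given above, and the activity of a receptor is not measured by its transcript.

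Receptors of steroid signalling, detoxification and stress were nearly level. DAF-12 binds the bile acid-like dafachronic acids and controls the choice of dauer larva and adult lifespan, and NHR-8 is its relative in cholesterol balance and toxin resistance. Of the 8 listed genes only *nhr-45*, which acts in the response to mitochondrial damage, had an interval to 1 side. It had 891 reads (AbaPep#07) and 776 reads (Control), a read ratio of 1.16 (1.05 to 1.28). Over all genes with 20 reads, 20.6% lay above no change and 20.6% below. The gene *daf-12* (X:10644409-10666875, 10 annotated transcripts) had 847 reads (AbaPep#07) and 789 reads (Control), but 16.04 FPKM (AbaPep#07) and 16.44 FPKM (Control). Its direction therefore depended on the unit, and the read interval held no change (0.982 to 1.19).

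The gene *nhr-8* had 429 reads (AbaPep#07) and 479 reads (Control), a read ratio of 0.903 (0.791 to 1.03). The hypoxia-induced *nhr-57* had 286.55 reads (AbaPep#07) and 259.79 reads (Control), and *nhr-176*, which acts in the response to the drug thiabendazole, had 87 reads (AbaPep#07) and 84 reads (Control). The other genes were *nhr-48*, *nhr-86* and *nhr-14*, with read ratios of 0.954, 0.924 and 0.964. The 8 log2 FPKM ratios ran from -0.16 to 0.20 with a median of -0.04.

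Partners and makers of ligands were listed with this group, and 7 of 8 were measured. The mediator subunit gene *mdt-15*, the coactivator of NHR-49, had 4516 reads (AbaPep#07) and 4654 reads (Control), and the dafachronic acid synthesis gene *daf-9* had 13 reads in each library. The oxygenase gene *daf-36*, an earlier step of that synthesis, was higher with 120 reads (AbaPep#07) and 77 reads (Control), a read ratio of 1.57 (1.17 to 2.12). The sterol methyltransferase gene *strm-1*, which draws sterols away from that synthesis, was lower with 64 reads (AbaPep#07) and 107 reads (Control), a read ratio of 0.603 (0.436 to 0.830). The coactivator gene *cbp-1* and the DAF-12 corepressor gene *din-1* were higher by small amounts, with read ratios of 1.04 and 1.18. Of the 7, 3 had intervals above no change and 1 below, against 20.6% of all genes in each direction. None of the 7 met the study thresholds.

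Developmental and neuronal receptors formed the longest of the role lists. Of 13 listed genes, 12 had at least 20 reads. Of these, 6 had intervals above no change, 1 below and 5 to neither side, where 20.6% of all genes lay above and 20.6% below. The median log2 FPKM ratio was 0.36. Of the 6 higher genes, *sex-1*, *nhr-25* and *nhr-91* are on X, where 661 of 2117 genes with 20 reads lay above and 249 below. The list was small and none of its members met the fold or study thresholds. The largest in reads was *sex-1* (X:10201329-10205421, minus strand), an X-chromosome signal that sets sex and dosage compensation in the embryo. It had 1575 reads (AbaPep#07) and 863 reads (Control), 50.75 FPKM (AbaPep#07) and 27.74 FPKM (Control), and a read ratio of 1.84 (1.69 to 2.00).

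The gene *nhr-25* (X:13008493-13013964), the relative of Ftz-F1 in epidermal development and moulting, had 241 reads (AbaPep#07) and 137 reads (Control), a read ratio of 1.77 (1.43 to 2.21). The Rev-erb relative *nhr-85*, which paces larval development, had 189.43 reads (AbaPep#07) and 117.03 reads (Control), a ratio of 1.63 (1.29 to 2.07). The Tailless relative *nhr-67*, known from the anchor cell and male tail, had 138 reads (AbaPep#07) and 87 reads (Control), a ratio of 1.60 (1.21 to 2.12). These genes were expressed at 2.72 to 5.51 FPKM, far below *sex-1*.

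Smaller differences in the same direction were measured for *nhr-91*, with 226 reads (AbaPep#07) and 167 reads (Control), and for the embryonic receptor *nhr-2*, with 415.07 reads (AbaPep#07) and 345.19 reads (Control). The moulting timer *nhr-23*, a relative of vertebrate ROR, was the lower gene, with 619 reads (AbaPep#07) and 732 reads (Control), a read ratio of 0.853 (0.765 to 0.951). It thus differed in direction from *nhr-25*, which shares its role in moulting. Of 7 moulting genes listed beside them, 3 were higher, 2 lower and 2 to neither side, against 20.6% of all genes in each direction, with none past 2-fold. Epidermis markers, which share the tissue of moulting, had summed FPKM of 315 (AbaPep#07) and 452 (Control). Only the collagen gene *col-19* of the 4 was lower beyond counting error, and *elt-3* was higher. Their part in these values was not tested.

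Receptors known for roles in particular neurons were near the limit of detection. The gene *unc-55*, needed in the ventral D motor neurons, had 25 reads (AbaPep#07) and 18 reads (Control). The axon pathfinding gene *fax-1* had 33 reads (AbaPep#07) and 27 reads (Control), and *odr-7*, which sets the identity of the AWA olfactory neuron, had 5 reads (AbaPep#07) and 3 reads (Control). A difference between the libraries was not detectable at this depth for these genes, as the read ratios had intervals of 0.734 to 2.73, 0.719 to 2.13 and 0.327 to 10.8. The genes *nhr-6*, *nhr-41* and *nhr-40* also had intervals that held no change.

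**Figure D2:**
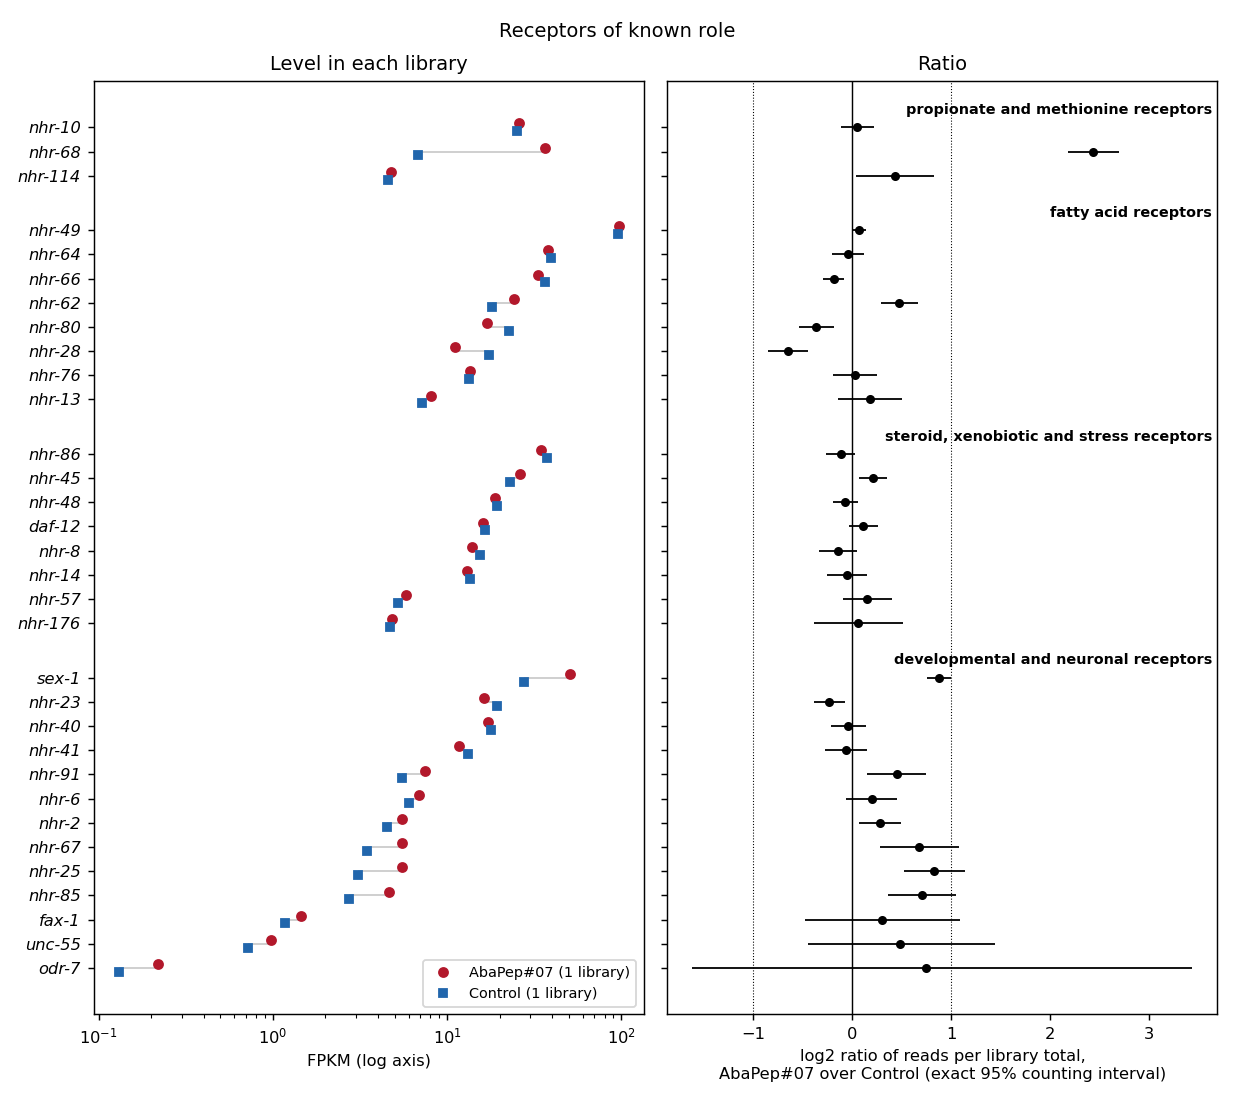
Receptors of known role, with FPKM in each library on a log axis (left; circles AbaPep#07, squares Control, 1 library each) and the log2 ratio of reads per library total with its exact 95% counting interval (right; dotted lines mark 2-fold). The interval of *nhr-68* lies wholly beyond 2-fold, *nhr-49* is nearly level at 96.29 FPKM (AbaPep#07) and 95.85 FPKM (Control), and *odr-7* has the widest interval.

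The other receptor genes that met the study thresholds rested on few reads. The gene *nhr-172* (V:7508994-7510607) had 45 reads (AbaPep#07) and 19 reads (Control), an FPKM ratio of 2.35 and a read interval of 1.37 to 4.33. The gene *nhr-150* (V:15479383-15481465) had 27 reads (AbaPep#07) and 9 reads (Control), with an interval of 1.38 to 7.31. The gene *nhr-147* (V:7345794-7348555) had 30 reads (AbaPep#07) and 10.48 reads (Control), with an interval of 1.44 to 6.94. All 3 were below 4 FPKM in both libraries, and none of them was on the lists of receptors with a known role.

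The reads of *nhr-147* are uncertain because the gene overlaps *nhr-149* (V:7348211-7349641) on the opposite strand. In the Control library *nhr-149* had 4.52 reads, so that the fractions of the pair added to whole reads. Whether the libraries kept the strand is not given in the sources used here. The remaining pair that met the thresholds, *nhr-113* (I:11473218-11475677) and *nhr-245* (I:11477744-11480071), are neighbours among the measured genes. The first had 10 reads (AbaPep#07) and 1.24 reads (Control), a ratio of 8.14 with an interval of 1.44 to 438. The second had 9 reads (AbaPep#07) and 0.72 reads (Control), a ratio of 12.6 with an interval of 1.26 to 398. Both rested on fewer than 20 reads and on fractional counts. Their ratios used the fractional counts, while the count test rounded reads down and the interval rounded them to the nearest whole read.

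The genes past 2-fold by FPKM without meeting the study thresholds were *nhr-263*, *nhr-214* and *nhr-247* in the higher direction, with 26, 17 and 18 reads in the AbaPep#07 library, against 13, 8 and 8 reads in the Control library. The single gene in the lower direction, *nhr-227* (V:2285432-2287480), had 8 reads (AbaPep#07) and 18 reads (Control), with an interval that held no change (0.169 to 1.08). At this depth such splits are close to counting error.

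The most abundant receptors differed little. By FPKM the order was *nhr-17*, *nhr-49*, *nhr-105*, *nhr-88* and *nhr-35*, which together made up 29.1% of the family's FPKM with AbaPep#07 and 27.9% in Control. The gene *nhr-17* (X:12663837-12667854, minus strand) stood far above the rest with 407.55 FPKM (AbaPep#07) and 346.81 FPKM (Control), a level above that of 97.9% of all genes. It had 10899 reads (AbaPep#07) and 9287 reads (Control), a read ratio of 1.18 (1.15 to 1.22), and made up 16.5% of the family's FPKM with AbaPep#07 and 14.5% in Control. The neighbouring order of *nhr-49* and *nhr-105* was narrow, as *nhr-105* had 83.99 FPKM (AbaPep#07) and 95.47 FPKM (Control), almost equal to *nhr-49* in the Control library. Its read ratio was 0.886 (0.835 to 0.940). The genes *nhr-88* and *nhr-35* had 76.96 and 52.99 FPKM (AbaPep#07), against 75.50 and 52.94 FPKM (Control), and the intervals of both held no change.

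For 4 of the 187 genes with at least 20 reads the log2 ratio by FPKM and by reads differed by over 0.3, and each has more than 1 annotated transcript. They were *nhr-114*, *nhr-98*, *nhr-202* and *nhr-181*, the last with a log2 ratio of 0.90 by FPKM and -0.19 by reads on 72 reads (AbaPep#07) and 83 reads (Control). RSEM divides reads among transcripts and genes of like sequence, and 43 of all 264 receptor genes had fractional reads in at least 1 library. The values of these genes are less certain singly than the sum of the family.

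Where the genes lie is a shared feature that their naming did not use. Chromosome V held 163 of the 264 receptor genes (61.7%, against 23.8% of all genes), and the rest were on IV (31), X (26), I (22), II (14) and III (8). Receptor genes on V had a median mean FPKM of 2.44 and those elsewhere one of 6.47. The median log2 FPKM ratio was 0.00 on V and likewise 0.00 elsewhere. On V, 17 of 119 genes with 20 reads had intervals above no change and 14 below, and on X the numbers were 7 and 1 of 20. Over all genes with 20 reads the numbers were 609 above and 562 below of 2822 on V, and 661 above and 249 below of 2117 on X. On X all genes had a median log2 FPKM ratio of 0.10, and the receptor genes one of 0.01.

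**Figure D3:**
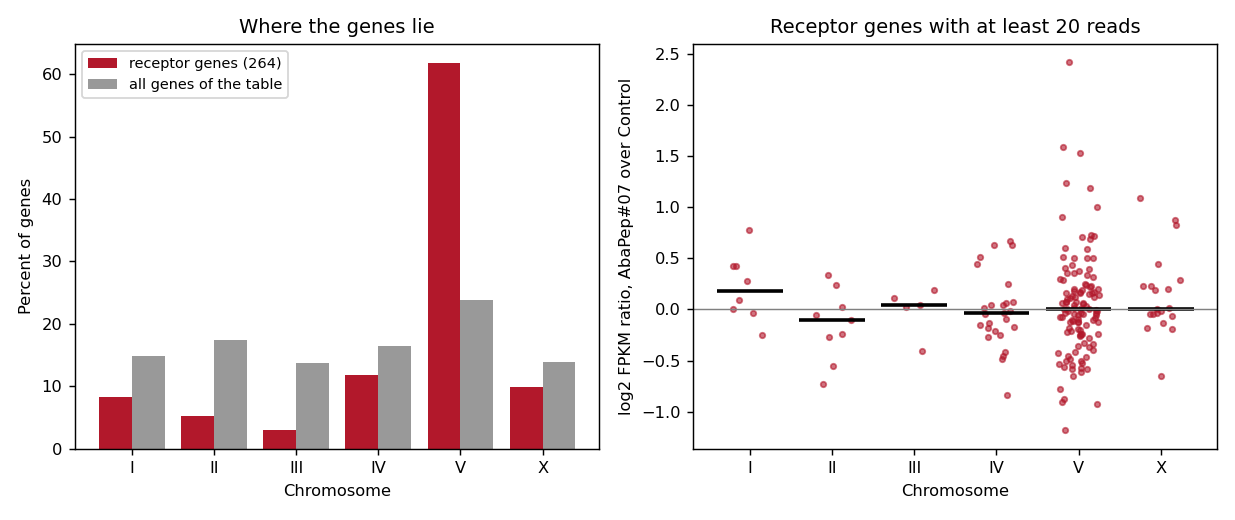
Left, the percent of receptor genes and of all genes on each chromosome, with 61.7% of receptor genes and 23.8% of all genes on V. Right, the log2 FPKM ratio (AbaPep#07 over Control) of each receptor gene with at least 20 reads by chromosome, where each point is 1 gene, black bars are medians, and the highest point on V is *nhr-68* at 2.42.

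Receptor genes also lie side by side among the measured genes. Adjacent here means that no other measured gene lies between, and genes that were not measured were passed over. In 42 runs of such adjacent genes stood 135 of the members (51.1%), and 30 of these runs with 105 genes were on V. The longest run of 9 genes, *nhr-185* to *nhr-124* (V:3844429-3886204), held genes with at most 18 reads in either library. In the run *nhr-179*, *nhr-117*, *nhr-110*, *nhr-237* and *nhr-238* all 5 genes were lower by FPKM with AbaPep#07. The most abundant of them, *nhr-117*, had 368 reads (AbaPep#07) and 551 reads (Control), a read ratio of 0.674 (0.589 to 0.770), and *nhr-110* had 160 reads (AbaPep#07) and 245 reads (Control), a ratio of 0.659 (0.536 to 0.807). The intervals of the other 3 held no change.

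The direction varied among runs. The adjacent pair *nhr-102* and *nhr-84* had 334 and 1169 reads (AbaPep#07), against 252 and 822 reads (Control), both higher beyond counting error, and so were the neighbours *nhr-50* and *nhr-63*. On IV the neighbours *nhr-138* and *nhr-100* were both lower, with 420.27 and 263.73 reads (AbaPep#07), against 564.54 and 368.46 reads (Control). Their reads are fractional in both libraries and partly shared. In the run of 7 genes from *nhr-56* to *nhr-96*, *nhr-18* was lower with 514 reads (AbaPep#07) and 768 reads (Control), while *nhr-96* was higher with 183 reads (AbaPep#07) and 145 reads (Control). Members of a run were picked out here after their values were seen, and runs were not tested as units.

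By protein annotation, 246 of the 264 genes have both the zinc finger and the ligand-binding domain, 10 have the zinc finger alone, 5 the ligand-binding domain alone and 3 neither. Genes with the zinc finger alone include *odr-7*, *fax-1*, *nhr-2*, *nhr-67* and *nhr-48*. The deposited annotation also sorts receptors by likeness to vertebrate classes. The class named RXR-like had 62 genes, *nhr-17*, *nhr-49*, *nhr-68* and *nhr-80* among them, of which 47 had 20 reads, with 11 intervals above no change and 3 below. The class named ESR-like had 20 genes, of which 14 had 20 reads, with 0 intervals above and 5 below, where 20.6% of all genes lay to each side. Its lower genes were *nhr-46*, *nhr-138*, *nhr-22*, *nhr-100* and *nhr-206*, with log2 FPKM ratios from -0.90 to -0.21. Of these *nhr-138* and *nhr-100* are the neighbours with partly shared reads, and the interval of *nhr-46* reached 0.980. The unsorted class of 148 genes had 15 above and 18 below among 110. The remaining classes were small, with 2 above and 1 below of 4 GCNF-like genes, 2 above and 1 below of 6 THR-like genes, 1 above of 2 SF-like genes and 1 below of 2 NGFIB-like genes with 20 reads. These classes were not tested against one another.

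**Figure D4:**
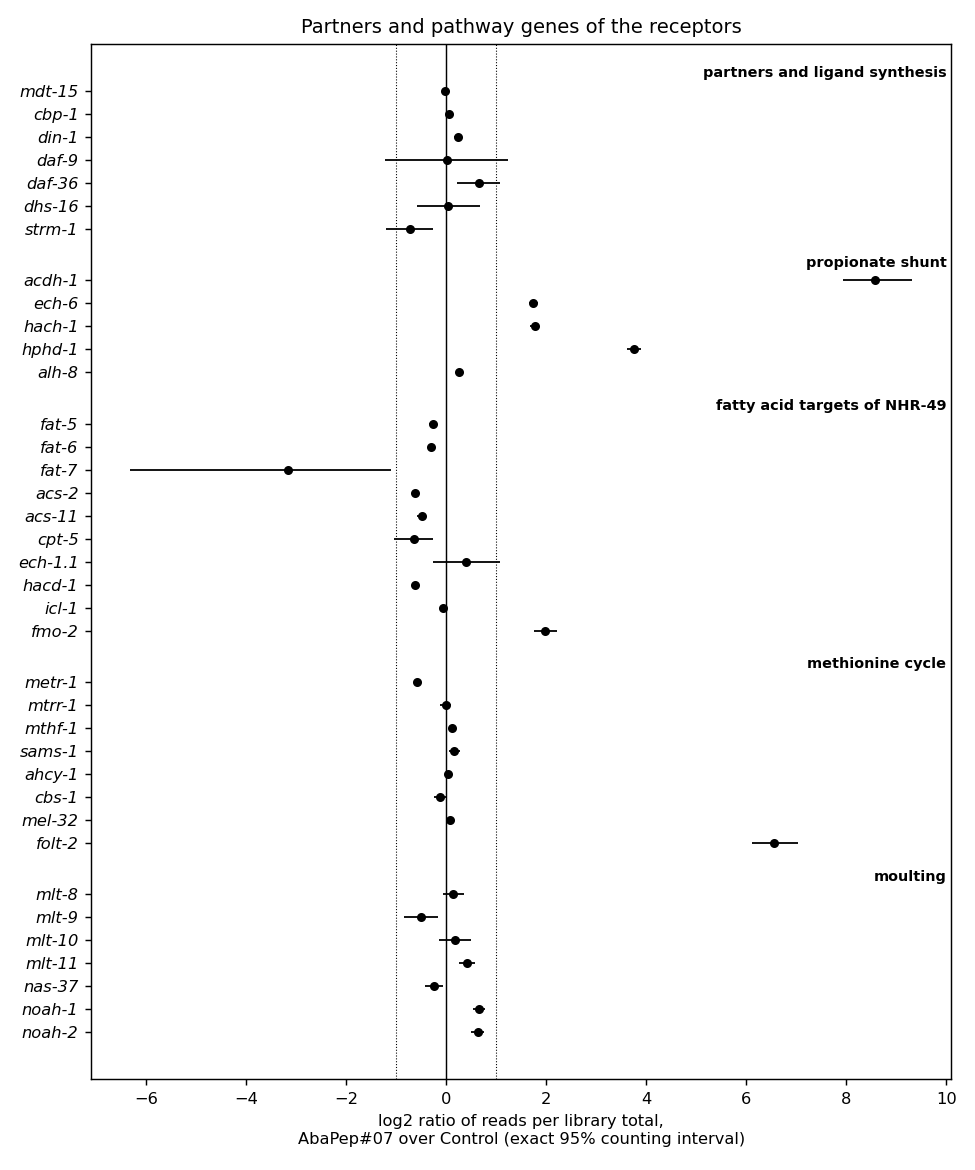
Log2 ratio of reads per library total (AbaPep#07 over Control) for listed partners, ligand synthesis genes and pathway genes of the receptors, with exact 95% counting intervals as bars and dotted lines at 2-fold. Each point is 1 gene. The propionate shunt genes lie to the right, with *acdh-1* farthest at a read ratio of 379. To the left lie 8 of the 10 genes listed as targets of NHR-49.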

How the data were processed

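Reads from the BGISEQ-500 were filtered by the authors in SOAPnuke. Alignment to coding genes used Bowtie2 (2.2.5), and RSEM (1.2.12) gave the expression estimates. HISAT2 (2.0.4) and the build WBcel235 are also named in the submitters' processing notes. In the deposited table are the estimated counts of each gene, not normalized, and the FPKM and TPM values of RSEM, which the authors gave to 2 decimals. It also holds their log2 ratio, p-value and FDR, which were not used. Columns of other values per sample numbered 0.

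Members were the rows named *nhr-* with a number, *daf-12*, *unc-55*, *fax-1*, *odr-7* and *sex-1*. The members and the gene lists were chosen with earlier results of these data known. Named genes were those 5 and *nhr-10*, *nhr-49*, *nhr-68*, *nhr-80* and *nhr-114*, members past the fold or study thresholds, the 5 of highest mean FPKM, and listed receptors with at least 20 reads. Pathway genes were named where they met the study thresholds. Other genes were named after their values were seen. All 264 members were matched by gene ID to RefSeq on WBcel235 for positions, and strand and transcript numbers came from Ensembl on that build. RefSeq lists 10 further *nhr-* genes that were not analysed here.

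PossionDis was recomputed on counts rounded down, with Benjamini-Hochberg adjustment over 18510 genes, and 0.01 in place of an FPKM of 0. Replicates are needed by edgeR's quasi-likelihood test and by DESeq2, so neither was fitted. The counting interval is the Clopper-Pearson interval of the split of a gene's reads, rounded to the nearest whole read. In R 4.3.3, edgeR 4.0.16 gave the TMM factors and DESeq2 1.42.0 its size factors, and the rest came from Python 3.11.15 with scipy 1.17.1. The count test and the interval were tested on simulated data. Alternatives were TPM, reads, TMM and DESeq2 scaling, other minimums of reads, 1 FPKM added, both tails including the count, Bonferroni adjustment, and the exact test of edgeR at assumed coefficients of variation of 0.1, 0.2 and 0.4.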

Additional observations from a re-analysis of the deposited data

How the results depend on the processing

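The 7 receptor genes past 2-fold in the higher direction were 1 with 1 FPKM added, 1 with a minimum of 100 reads and 35 with no minimum. The 1 receptor gene in the lower direction was 0, 0 and 21. Over all genes the 461 higher became 185, 194 and 1761 in that order, and the 331 lower became 142, 100 and 1449. The 6 genes meeting the study thresholds as higher were 1 with 1 FPKM added, with a minimum of 100 reads, with Bonferroni adjustment, and with edgeR's exact test at an assumed coefficient of 0.1 or 0.2, and 0 at 0.4. The 1 was *nhr-68* each time. Over all genes the 388 meeting them as higher became 182 with 1 FPKM added and 181 with a minimum of 100 reads. With edgeR's exact test the all-gene number was 219, 50 and 6 at assumed coefficients of 0.1, 0.2 and 0.4. It fell with Bonferroni adjustment too, so stricter rules lowered the number over all genes as well as among the receptors. With TPM, reads, TMM or DESeq2 scaling, or both tails including the count, the number of receptor genes was 6. In the lower direction the number of receptor genes was 0 under all alternatives run. The median log2 ratio of the family ran from -0.02 to 0.06 and the summed ratio from 1.03 to 1.08, both highest by TPM, by which the median over all genes was 0.03. Of 45 named receptors, 5 changed sign under some alternative, *daf-12* among them, all with a log2 FPKM ratio within 0.05 of 0. No paired analysis was possible because each condition has 1 library, and for the same reason no library could be left out. Depth limits the 77 genes under 20 reads, and the variation between cultures is not measured.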

Other observations

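The deposited annotation gives a receptor domain to 5 genes outside the naming rule. Of these *hizr-1*, the zinc-sensing receptor, had 67 reads (AbaPep#07) and 63 reads (Control), and Y67D8B.2 had 17 reads (AbaPep#07) and 16 reads (Control). The other 3, *dpr-1*, ZK418.10 and ZK418.11, had at most 5 reads in either library.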
